A study of Mus musculus with 36 samples.

Results

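The 30 genes described here encode enzymes of cholesterol and fatty acid synthesis and proteins that control them, and they were chosen by name as genes known to be regulated by, or to act with, the sterol regulatory element-binding proteins (SREBPs). They are 30 of the 55358 genes of the count table, and all 30 were among the 15114 genes with enough reads to test. By role, 7 belong to the mevalonate pathway, 11 are squalene and sterol enzymes, 5 are SREBP factors, regulators or sterol transport proteins, and 7 act in fatty acid synthesis. No measured value entered the choice of a name, but the choice was made with results of these data known. The number of members called is therefore given as a description beside the share of all tested genes called in the same direction.

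Poly(A) RNA was sequenced from murine keratinocytes of 3 genotypes. WT cells carried intact Pkp4, PKP4-KO cells carried a Pkp4 allele with a deleted exon, and Rescue cells were PKP4-KO cells that expressed EGFP-tagged human PKP4 from a lentivirus after puromycin selection. PKP4, also known as p0071, is an armadillo protein of cell junctions. The cells came from the epidermis of newborn pups, whose Pkp4 allele had been backcrossed onto C57BL/6J, and stayed 24 h or 72 h in low calcium medium (LCM) or high calcium medium (HCM), in which keratinocytes form junctions and differentiate. The 12 groups held 3 libraries each. The sample titles write LD for the 24 h libraries and HD for the 72 h libraries. Anything else that these letters mark cannot be told apart from time. The pups that gave WT cells were not those that gave PKP4-KO cells, and Rescue cells passed through drug selection, so effects of PKP4 and of the origin or selection of the cells cannot be told apart. The labels name the libraries of a group as replicates without saying whether they came from separate animals, so p-values measure the spread between these libraries.

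Total counts ranged from 13602728 to 22467187 per library. Pkp4 in PKP4-KO cells stood at 12.6% to 27.5% of its WT level across the 4 culture conditions (two-sided exact permutation test, p = 0.1 in each, the smallest value that 3 against 3 libraries allow), and the GFP_PKP4 row held 1902 to 15325 counts in the Rescue libraries and 0 to 113 in the others. The keratinocyte markers Krt5 and Krt14 were high in all 36 libraries, but Itga6 and Trp63 varied between groups. Without TMM factors, mean Itga6 was 15.0 CPM in PKP4-KO 72 h HCM and 97.5 in WT 72 h HCM. In 24 h LCM it was 106 CPM in PKP4-KO and 338 in WT, and it was lower in PKP4-KO in the other conditions too. Mean Trp63 was 30.8 CPM in PKP4-KO 72 h HCM and 62.3 in WT 72 h HCM, but higher in PKP4-KO in the other conditions. Plin1 of adipocytes, Tyr of melanocytes and Cd207 of Langerhans cells were at 0 in all 36 libraries. Other markers of these cells were not at 0, with Fabp4 at up to 261 CPM, Cd68 at up to 156 CPM, Mlana at up to 1.69 CPM and Pmel at up to 1.25 CPM in a library. The libraries differed in the balance of long and short genes. A length index, the median log2 deviation of long genes (above 6248 bases, the upper quartile) minus that of short genes (below 2042 bases, the lower quartile), lay between -1.70 and -1.52 in the 3 PKP4-KO 72 h HCM libraries and between -1.09 and 0.873 in the other 33. In 7 libraries it lay more than 0.4 below the median of their group, namely WT 24 h HCM 2, WT 72 h HCM 3, PKP4-KO 24 h LCM 1, PKP4-KO 24 h HCM 3, PKP4-KO 72 h LCM 2, Rescue 24 h LCM 3 and Rescue 72 h LCM 2.

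SREBPs are transcription factors made as membrane proteins of the endoplasmic reticulum. When membrane sterol is low, SCAP escorts them to the Golgi, where proteases release the active part, and when sterol is high, INSIG1 holds SCAP back. SREBP-2, from Srebf2, acts mainly on cholesterol genes, and SREBP-1, from Srebf1, mainly on fatty acid genes. Both bind sterol regulatory elements in promoters, often beside CCAAT boxes bound by NF-Y. In the epidermis cholesterol, fatty acids and ceramides form the lamellar lipids of the water barrier, which keratinocytes make as they differentiate.

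The windows of 250 bases before the Ensembl canonical start site were searched on both strands for the sterol regulatory element TCACNCCAC and for CCAAT. TCACNCCAC is a spelling of the sterol element, and other spellings were not searched. The sterol element was found in 3 of 30 members (10%) and in 1.12% of 21687 promoters, and CCAAT in 18 of 30 members (60.0%) and in 36.4% of promoters. Of the 32 CCAAT matches in members, 22 (68.8%) were in the opposite orientation, read as ATTGG on the gene's strand, against 49.3% of 11143 matches in all promoters. Both motifs occurred in Hmgcs1 and Fasn (6.67% of members, 0.378% of all promoters). GGGCGG, a letter string read by Sp1 factors, was found in 60.0% of members and 36.3% of promoters. The 21687 promoters are those of protein-coding genes of the count table, with or without enough reads to test, whereas all 30 members had enough. Promoters of tested genes alone were not compared. A match is a run of letters and no measurement of binding. The stretches below come from the same promoters on GRCm39, with the motif in capitals, 5′ to 3′ on the gene's strand. They are shown because they carry the sterol element (Hmgcs1, Fasn and Acaca), or CCAAT in genes whose values are given in every library. Idi1 is shown for a pair of CCAAT boxes.
Hmgcs1 sterol element, chr13:120151741-120151767, plus strand: gtcaccgtcTCACCCCACttcccaggt
Hmgcs1 CCAAT box, chr13:120151833-120151855, plus strand: ccgcctctcATTGGctgaaagcg
Hmgcs1 CCAAT box, chr13:120151888-120151910, plus strand: agtcccgggATTGGcagaggtag
Idi1 pair of CCAAT boxes, chr13:8935867-8935896, plus strand: ttgtgctagATTGGcaATTGGctggaggca
Sqle CCAAT box, chr15:59186756-59186778, plus strand: ccgcccgccATTGGacaaacgct
Sqle CCAAT box, chr15:59186810-59186832, plus strand: cgcgctctcATTGGttcggacgg
Insig1 CCAAT box, chr5:28276185-28276207, plus strand: cctcctcccATTGGctccggcgg
Srebf2 CCAAT box, chr15:82031326-82031348, plus strand: cgcgcgccgATTGGctaatgcaa
Fasn sterol element, chr11:120715064-120715090, minus strand: gcgcgggcaTCACCCCACcggcggcgg
Fasn CCAAT box, chr11:120715017-120715039, minus strand: ccgacgctcATTGGcctgggcgg
Scd1 CCAAT box, chr19:44396394-44396416, minus strand: tgcgcctagCCAATggaaaaggc
Scd1 CCAAT box, chr19:44396351-44396373, minus strand: tctctttggCCAATgacaagacg
Acaca sterol element, chr11:84063841-84063867, plus strand: caggcacacTCACACCACaccctgggt
The CCAAT boxes of Hmgcs1, Sqle, Insig1, Srebf2, Idi1 and Fasn read ATTGG on the gene's strand, and both of Scd1 read CCAAT. Stard4, not printed, had 2 matches in each orientation, and the window of Srebf1 held no CCAAT match. The Idi1 window holds a pair of them side by side.

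The members were expressed at very different levels. As reads scaled to library size and gene length (RPKM, averaged over the 12 groups), Scd2, a stearoyl-CoA desaturase, stood highest at 91.3. It was followed by Fdft1, which makes squalene, at 38.9, Acat2, the first thiolase of the pathway, at 36.8, and Acly, which makes cytosolic acetyl-CoA from citrate, at 30.9. The lowest were Fdps (farnesyl diphosphate synthase) at 0.415 RPKM and the sterol reductase gene Tm7sf2 at 0.694 RPKM. Idi1, at 20.1 RPKM, and Fdft1 were far above Fdps, and whether reads of Fdps were lost in counting was not tested. The fewest counts in any library were 6 for Fdps, 4 for Tm7sf2 and 4 for Scd1, so the values of these genes are the least precise. Of the 30 members, 21 had their highest group mean in Rescue 72 h HCM, 4 in PKP4-KO 72 h HCM and 3 in WT 72 h HCM. The other two were Scap, which was highest in Rescue 72 h LCM, and Srebf1, which was highest in PKP4-KO 24 h HCM. The share of all tested genes that were highest in Rescue 72 h HCM was not counted. In that condition 19.5% of all tested genes were called higher in Rescue than in WT, and 37.2% higher than in PKP4-KO.

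**Figure D1:**
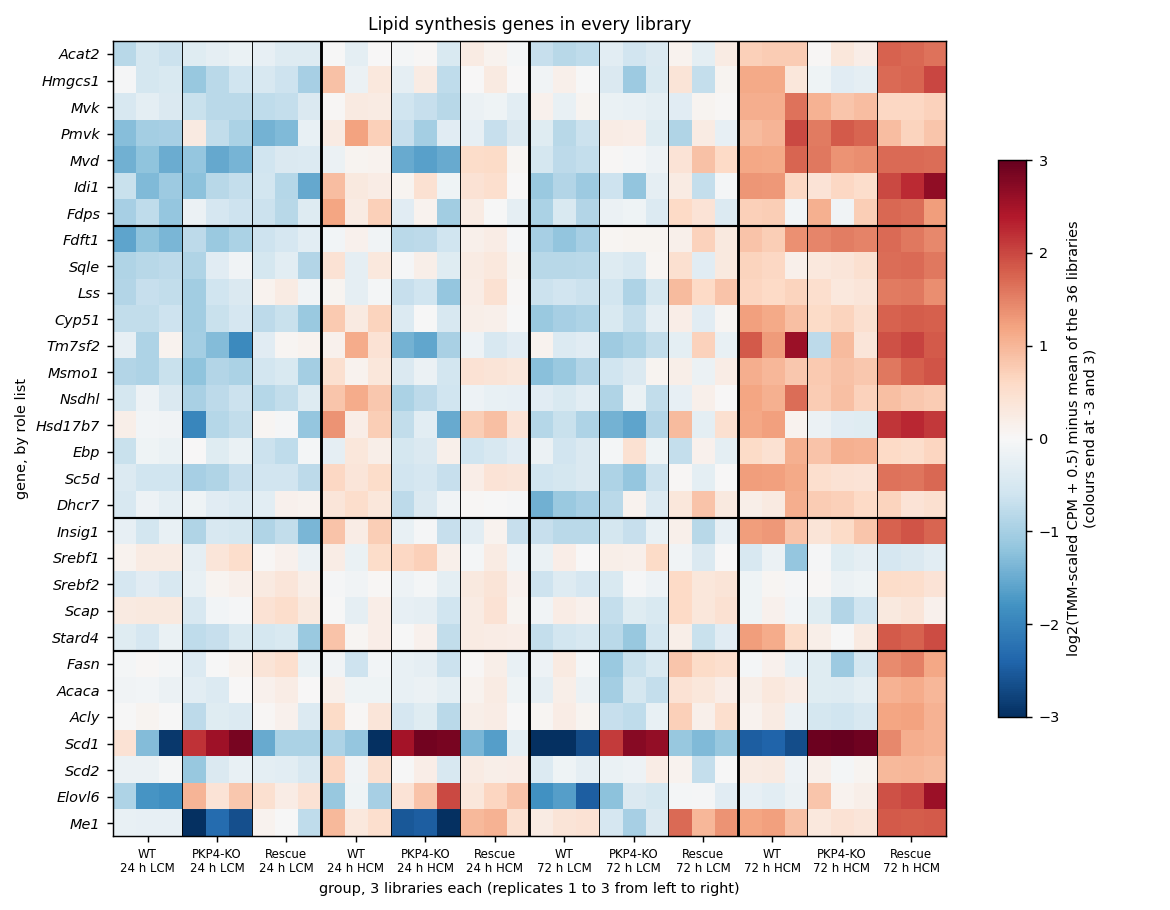
Heat map of the 30 members (rows, grouped by role) in the 36 libraries (columns, ordered by group), coloured by log2 TMM-scaled counts (CPM) minus the gene's mean over all libraries. By group mean, 21 members were highest in Rescue 72 h HCM (the share of all tested genes was not counted), and Scd1 is warm across the PKP4-KO columns.

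The first question was how the module responded to calcium, the differentiation signal. In WT cells most of it rose in HCM. At 24 h 18 of 30 members were higher and 0 lower in HCM than in LCM, where 7.69% of all tested genes were called higher and 6.48% lower. At 72 h 23 members were higher and 0 lower, beside 10.6% and 10.8% of all genes. The median log2 difference of the 30 members was 0.81 at 24 h and 1.57 at 72 h, and that of all tested genes 0.02 and 0.01. Sterol synthesis carried this response: all 7 mevalonate genes and all 11 squalene and sterol genes were higher in HCM at 72 h, whereas of the 7 fatty acid genes Elovl6 and Me1 rose and the other 5 did not pass the test. Without the TMM factors the 24 h count was 9 higher and 0 lower.

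Insig1, whose product retains SCAP in the endoplasmic reticulum, illustrates the pattern in WT. Its levels at 24 h were 19.0, 15.2 and 19.3 CPM (counts scaled to library size with TMM factors) in LCM and 41.1, 26.4 and 37.8 in HCM (log2 fold change 0.98, SE 0.23, adjusted p = 0.00368). At 72 h they were 13.9, 12.6 and 12.7 CPM in LCM and 54.3, 56.1 and 41.4 in HCM (log2 fold change 1.95, SE 0.24, adjusted p = 4.43e-07). The LCM and HCM libraries did not overlap at either time. Idi1, which converts isopentenyl to dimethylallyl diphosphate, stood in WT at 33.003, 20.9 and 24.5 CPM in 24 h LCM and 101, 64.8 and 61.4 in 24 h HCM, a 2.90-fold difference. At 72 h its WT values were 24.1, 28.3 and 24.7 CPM in LCM and 133, 132 and 81.0 in HCM, a 4.49-fold difference (log2 fold change 2.17, SE 0.29, adjusted p = 1.56e-06). Again no HCM library reached down to the LCM range.

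Sqle, which encodes squalene epoxidase, a control point of sterol synthesis, had WT levels of 38.3, 40.3 and 42.3 CPM in 24 h LCM and 98.0, 60.5 and 90.0 in 24 h HCM (log2 fold change 1.04, SE 0.21, adjusted p = 0.000822). At 72 h the WT libraries held 40.9, 40.4 and 41.1 CPM in LCM and 115, 112 and 81.1 in HCM (log2 fold change 1.33, SE 0.21, adjusted p = 2.8e-05). The groups were apart at both times, and the lowest HCM value at each time belonged to a library of low length index. The HMG-CoA synthase gene Hmgcs1 stood in WT at 100.1, 70.8 and 74.1 CPM in 24 h LCM and 187, 90.0 and 126 in 24 h HCM, where the groups overlapped and the difference missed the threshold (log2 fold change 0.72, SE 0.27, adjusted p = 0.0802). At 72 h it was called, at 95.5, 114 and 102 CPM in LCM and 226, 224 and 129.97 in HCM (log2 fold change 0.90, SE 0.27, adjusted p = 0.0176). The sterol carrier gene Stard4 gave 17.003, 15.2 and 19.1 CPM in WT 24 h LCM and 40.005, 22.9 and 25.4 in 24 h HCM (log2 fold change 0.78, SE 0.23, adjusted p = 0.0215), with all HCM libraries above. After 72 h the Stard4 values were 13.2, 14.7 and 15.4 CPM in LCM and 53.2, 48.0 and 32.2 in HCM (log2 fold change 1.63, SE 0.24, adjusted p = 7.18e-06).

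Of the genes for the SREBPs, Srebf2 rose with calcium in WT at both times and Srebf1 did not pass the test. Srebf2 in WT was 94.1, 106 and 95.9 CPM in 24 h LCM and 130.4, 124 and 138 in 24 h HCM (log2 fold change 0.41, SE 0.12, adjusted p = 0.0172), and 87.3, 102 and 94.1 CPM in 72 h LCM and 123, 139.6 and 129.7 in 72 h HCM (log2 fold change 0.47, SE 0.12, adjusted p = 0.00429). The rise was 1.32-fold and 1.38-fold, and the libraries did not overlap. Srebf1 in WT was 49.5, 54.2 and 54.7 CPM in 24 h LCM, 53.8, 39.8 and 67.7 in 24 h HCM, 39.6, 52.5 and 45.9 in 72 h LCM and 32.8, 40.3 and 20.2 in 72 h HCM. It passed the test for calcium in none of the 6 HCM against LCM comparisons, nor did Scap. In bulk RNA, fewer cells of a type and less RNA per cell cannot be told apart.

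In PKP4-KO cells the calcium response was small at 24 h and broad at 72 h. At 24 h 2 members were higher in HCM and 0 lower (background 1.44% and 1.4%), and at 72 h 22 were higher and 0 lower (background 12.9% and 19.7%). The pair called at 24 h was Idi1 (log2 fold change 1.07, SE 0.28, adjusted p = 0.0295) and Msmo1, a sterol methyl oxidase (log2 fold change 0.63, SE 0.17, adjusted p = 0.0323). Both 24 h calls were lost when any 1 of 5 of the 6 libraries was left out, all but PKP4-KO 24 h HCM 3. The median log2 difference of the members was 0.15 at 24 h and 1.02 at 72 h. At 72 h 6 of 7 mevalonate genes and 11 of 11 sterol genes passed. The 72 h count depended on scaling: without the TMM factors, which were 0.481 to 0.546 in the PKP4-KO 72 h HCM libraries, 6 members were higher and 4 lower, and the median of all tested genes then stood at -0.77.

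The Insig1 values of PKP4-KO cells were 11.8, 16.1 and 15.5 CPM in 24 h LCM and 19.1, 22.2 and 13.7 in 24 h HCM, with overlapping groups (log2 fold change 0.34, SE 0.23, adjusted p = 0.566). At 72 h they were 15.6, 13.7 and 19.3 CPM in LCM and 29.7, 34.0 and 40.8 in HCM, without overlap (log2 fold change 1.099, SE 0.24, adjusted p = 0.000674). Sqle in PKP4-KO cells gave 38.9, 57.6 and 67.3 CPM in 24 h LCM and 70.8, 82.8 and 56.0 in 24 h HCM, and 55.2, 51.9 and 76.2 in 72 h LCM and 90.0, 93.3 and 101 in 72 h HCM. The groups overlapped at 24 h (log2 fold change 0.36, SE 0.21, adjusted p = 0.477) and were apart at 72 h (log2 fold change 0.63, SE 0.21, adjusted p = 0.0217), though without the TMM factors the 72 h difference was -0.08 and did not pass.

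In Rescue cells 12 members were higher in HCM at 24 h and 0 lower (background 6% and 5.96%), and 25 were higher at 72 h and 0 lower (background 13% and 12%). The 72 h response was the only one of the 6 in which most fatty acid genes took part, with 6 of 7 higher. Fasn, the fatty acid synthase gene, stood at 271, 224 and 216 CPM in Rescue 72 h LCM and 406, 435 and 337 in 72 h HCM (log2 fold change 0.73, SE 0.20, adjusted p = 0.00956), and all HCM libraries were above all LCM libraries. Its WT values at 72 h were 136, 182 and 147 CPM in LCM and 145, 167 and 130.3 in HCM, which overlapped (log2 fold change -0.07, SE 0.20, adjusted p = 0.855). Insig1 reached 77.7, 84.3 and 77.1 CPM in Rescue 72 h HCM, from 25.3, 12.4 and 19.0 in 72 h LCM (log2 fold change 2.07, SE 0.24, adjusted p = 1.91e-07). Over all 6 calcium comparisons Idi1 and Msmo1 were higher in HCM each time, as 0.258% of tested genes were, and no member was ever called lower.

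**Figure D2:**
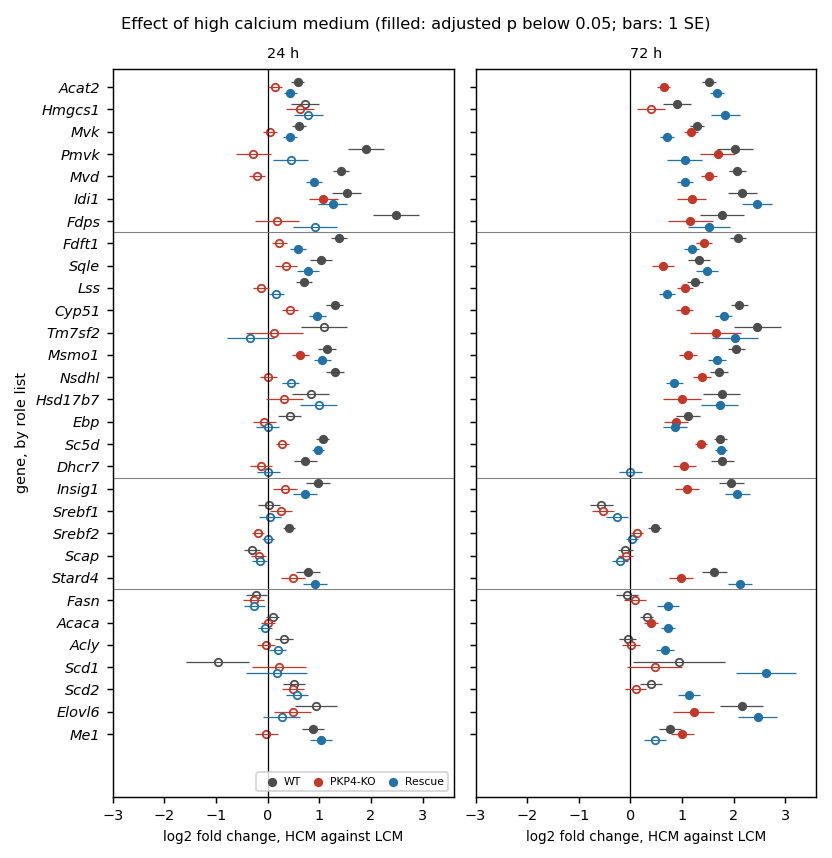
Log2 differences between HCM and LCM (x axis, error bars are standard errors) for the 30 members (y axis). The times 24 h and 72 h are separate panels, with the genotypes in separate colours and filled points for calls. In WT 18 members are filled at 24 h and 23 at 72 h, in PKP4-KO 2 and 22, and in Rescue 12 and 25, all to the right of 0.

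Of the members with the widest calcium effects, Fdps and Tm7sf2 were counted at low depth and Elovl6, the elongase of saturated fatty acids, only a little above them. Fdps rose in WT at 24 h from 0.475, 0.641 and 0.364 CPM in LCM to 3.86, 1.80 and 2.65 in HCM (log2 fold change 2.48, SE 0.44, adjusted p = 0.000177). Elovl6 in Rescue cells at 72 h had 4.58, 4.64 and 3.67 CPM in LCM and 19.5, 20.9 and 30.8 in HCM (log2 fold change 2.46, SE 0.38, adjusted p = 1.51e-05). Tm7sf2 in WT at 72 h had 2.31, 1.47 and 1.55 CPM in LCM and 8.80, 5.75 and 14.9 in HCM (log2 fold change 2.46, SE 0.45, adjusted p = 0.00015). In each of these pairs the HCM libraries lay above the LCM libraries.

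Whether the calcium response itself differed between PKP4-KO and WT was tested as a difference of effects. At 24 h the response was smaller in PKP4-KO for 9 members and larger for 0, beside 2.79% and 1.23% of all tested genes. Without WT 24 h LCM 1, WT 24 h HCM 1 or PKP4-KO 24 h HCM 3 the count was 5 lower. The 9 were the mevalonate genes Pmvk, Mvd and Fdps, the sterol genes Fdft1, Lss, Cyp51, Nsdhl and Sc5d, and Srebf2. Mvd, the decarboxylase that ends the mevalonate steps, stood at 13.2, 15.7 and 12.9 CPM in WT 24 h LCM and 32.5, 39.0 and 40.05 in WT 24 h HCM, without overlap. In PKP4-KO it stood at 16.3, 12.4 and 13.7 CPM in 24 h LCM and 12.6, 11.7 and 12.6 in 24 h HCM, with overlap. The effects differed by -1.62 (SE 0.22) on the log2 scale (adjusted p = 2.9e-05). Pmvk, phosphomevalonate kinase, gave 13.8, 16.7 and 16.97 CPM in WT 24 h LCM, 40.7, 80.1 and 56.9 in WT 24 h HCM, 41.0, 20.2 and 17.5 in PKP4-KO 24 h LCM and 21.1, 16.7 and 27.1 in PKP4-KO 24 h HCM (difference of effects -2.18 (SE 0.48), adjusted p = 0.00714). The groups were apart in WT and overlapped in PKP4-KO. The Pmvk level also moved with the length index within groups (r = -0.94 over 36 libraries). The difference of Fdps was -2.31 (SE 0.61) (adjusted p = 0.0269), at 6 counts in its lowest library.

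At 72 h the calcium response was smaller in PKP4-KO for 3 members and larger for 0 (background 3.88% and 1.85%). The 3 were Cyp51, the lanosterol demethylase gene, at -1.05 (SE 0.23) (adjusted p = 0.00416), Msmo1 at -0.94 (SE 0.23) (adjusted p = 0.013) and Acat2 at -0.88 (SE 0.19) (adjusted p = 0.00343). Cyp51 stood at 46.4, 50.6 and 53.1 CPM in WT 72 h LCM and 236, 221 and 188 in WT 72 h HCM. In PKP4-KO it stood at 72.7, 60.8 and 83.3 CPM in 72 h LCM and 149.8, 161 and 139.7 in 72 h HCM, so it was higher in HCM in both genotypes but started higher and ended lower in PKP4-KO. The calcium effect of Idi1 differed by -0.98 (SE 0.39) at 72 h and did not pass (adjusted p = 0.166). Of the 8 genes followed in every library, the differences of the calcium effect were -0.09 for Hmgcs1, -0.68 for Sqle, -0.63 for Insig1, -0.29 for Stard4 and -0.05 for Fasn at 24 h, and none passed. Srebf1 (0.24) and Scd1 (1.18) did not pass either, and Srebf2 did (-0.59 (SE 0.17), adjusted p = 0.0386). At 72 h none of the 8 passed, with values of -0.51 for Hmgcs1, -0.70 for Sqle, -0.85 for Insig1 and -0.65 for Stard4, and 0.03 for Srebf1, -0.34 for Srebf2, 0.16 for Fasn and -0.48 for Scd1.

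**Figure D3:**
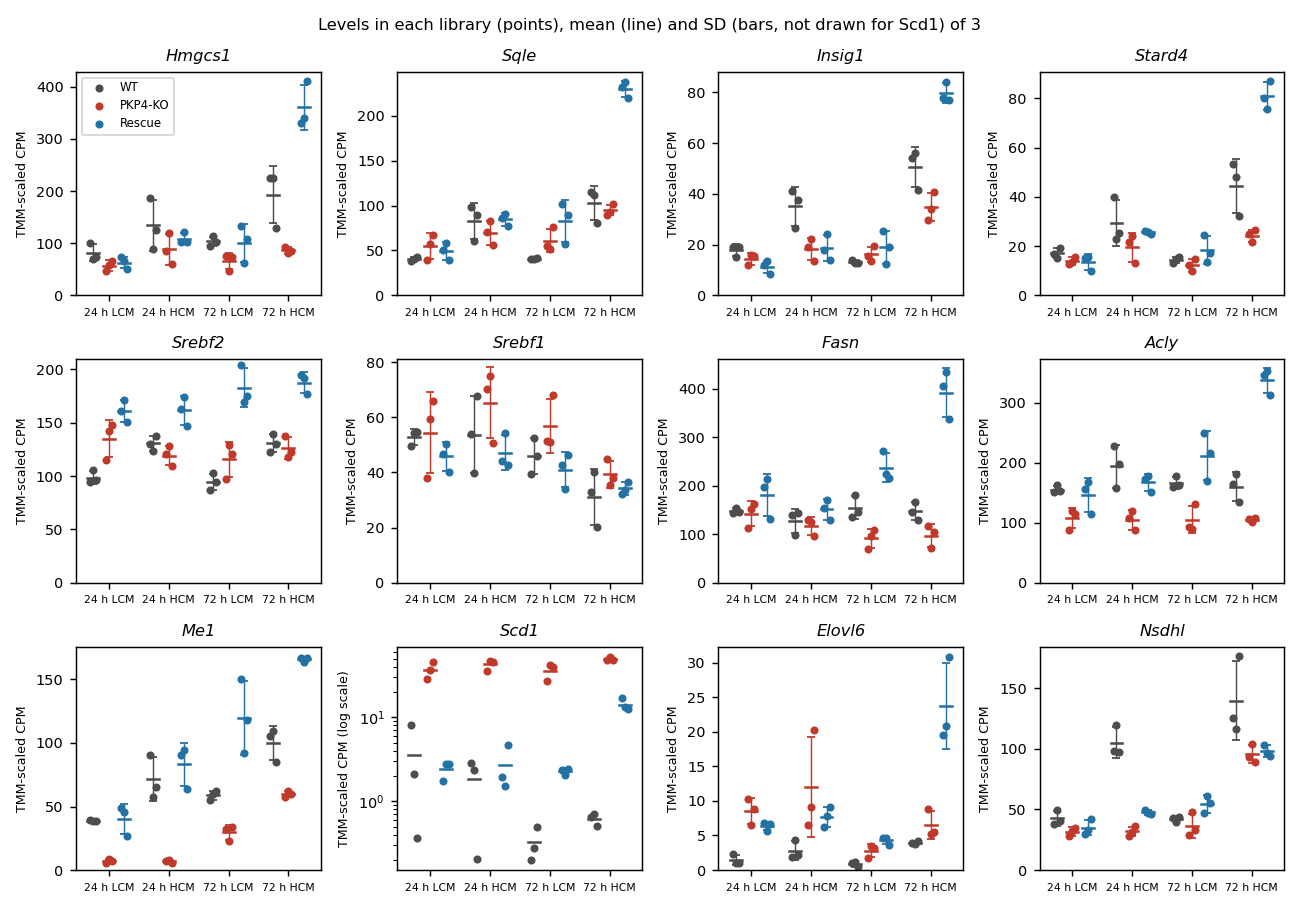
TMM-scaled CPM (y axis) of 12 members in the 12 groups (x axis, genotypes in separate colours), with a point per library and a line at the group mean. The members are Hmgcs1, Sqle, Insig1, Stard4, Srebf2, Srebf1, Fasn, Acly, Me1, Scd1, Elovl6 and Nsdhl. The y axis is logarithmic for Scd1 and linear from 0 for the others, which also have SD bars. Insig1, Sqle, Hmgcs1 and Stard4 peak in Rescue 72 h HCM, Srebf1 and Srebf2 stay within about 2-fold between group means, and Scd1 is at 26.8 CPM or more in every PKP4-KO library.

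The next question was what time in culture added. From 24 h to 72 h in HCM, 9 members rose and 1 fell in WT (background 9.16% and 8.69%), 16 rose and 2 fell in PKP4-KO (24.3% and 31.4%), and 26 rose and 0 fell in Rescue (13.6% and 10.7%). In LCM the counts were 2 higher and 2 lower in WT (background 5.29% and 4.66%), 5 and 3 in PKP4-KO (12.4% and 13.7%), and 12 and 0 in Rescue (6.84% and 2.96%). The 4 calls in WT LCM were Mvk and Mvd, which were higher at 72 h, and Dhcr7 and Scd1, which were lower. Mvk, mevalonate kinase, and Mvd rose in all 6 time comparisons, as 0.728% of tested genes did. In WT HCM the fall was that of Srebf1 (log2 fold change -0.79, SE 0.22, adjusted p = 0.0119), and in PKP4-KO HCM Srebf1 fell again (log2 fold change -0.73, SE 0.22, adjusted p = 0.00616) together with Elovl6 (log2 fold change -0.87, SE 0.37, adjusted p = 0.0489). Without the TMM factors the PKP4-KO HCM count was 7 higher and 11 lower.

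Mvd and Me1 had the largest rises with time. Mvd in PKP4-KO HCM went from 12.6, 11.7 and 12.6 CPM at 24 h to 112, 94.7 and 97.3 at 72 h, an 8.27-fold rise (log2 fold change 3.05, SE 0.17, adjusted p = 1.57e-14), and in WT HCM from 32.5, 39.0 and 40.05 to 83.7, 81.6 and 125 CPM (log2 fold change 1.38, SE 0.16, adjusted p = 2.39e-07). Me1, malic enzyme, which supplies NADPH to fatty acid synthesis, went in PKP4-KO HCM from 7.45, 7.90 and 5.24 CPM to 57.1, 62.2 and 59.6 (log2 fold change 3.11, SE 0.24, adjusted p = 1.56e-11). The Me1 values of WT HCM were 90.7, 57.7 and 65.7 CPM at 24 h and 106, 109 and 85.1 at 72 h, and that difference did not pass (log2 fold change 0.49, SE 0.22, adjusted p = 0.121). Pmvk in PKP4-KO HCM rose from 21.1, 16.7 and 27.1 to 102, 124 and 115 CPM (log2 fold change 2.39, SE 0.35, adjusted p = 2.2e-06), and Tm7sf2 in Rescue HCM from 1.85, 1.37 and 1.54 to 9.21, 10.04 and 8.84 CPM (log2 fold change 2.56, SE 0.45, adjusted p = 9.66e-05). No library at 24 h reached the 72 h range in any of the 5 comparisons called here. The PKP4-KO HCM libraries had a length index of -0.51 to 0.43 at 24 h and -1.70 to -1.52 at 72 h. Their TMM factors were 0.982 to 1.15 at 24 h and 0.481 to 0.546 at 72 h. Within groups r with the index was -0.94 for Pmvk, -0.67 for Mvd and 0.86 for Me1. The part of these library differences in the rises was not tested.

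Tested as a difference of effects, time changed 4 members more upward in PKP4-KO than in WT in LCM and 0 more downward (background 3.43% and 1.82%). These were Scd1 (3.37 (SE 0.90), adjusted p = 0.0238), Me1 (1.48 (SE 0.31), adjusted p = 0.00323), Msmo1 (0.99 (SE 0.23), adjusted p = 0.00895) and Fdft1 (0.70 (SE 0.21), adjusted p = 0.0464). In HCM 8 members moved more upward and 1 more downward in PKP4-KO (background 10.8% and 15.8%). The balance depended on the scaling, with 15 upward and 1 downward with the gene-length offset and 4 and 8 without the TMM factors. Me1 differed most (2.62 (SE 0.31), adjusted p = 2.71e-07), and Pmvk (1.78 (SE 0.48), adjusted p = 0.00607) and Mvd (1.67 (SE 0.22), adjusted p = 1.21e-06) followed among the calls. Scd1 had a difference of 1.71 (SE 0.91) in HCM that did not pass (adjusted p = 0.172). For Hmgcs1, Sqle, Insig1, Srebf1, Srebf2, Fasn and Stard4 the time effects of PKP4-KO minus WT were -0.14, 0.14, 0.61, 0.26, -0.17, -0.69 and 0.06 in LCM. In HCM they were, in the same order, -0.55, 0.13, 0.39, 0.06, 0.08, -0.48 and -0.29, and no value of either medium passed.

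The central question of the study was the effect of losing PKP4. The comparisons of PKP4-KO with WT and of Rescue with WT share the WT libraries, and those of PKP4-KO with WT and of Rescue with PKP4-KO share the PKP4-KO libraries, so their values are given side by side. At 24 h in HCM 17 of 30 members were lower in PKP4-KO and 2 higher, beside 22.2% and 20.7% of all tested genes, with a median log2 difference of -0.71 (all genes 0.00). At 24 h in LCM 8 were lower and 5 higher (background 20.6% and 19.7%). The 24 h LCM counts went down to 3 lower without PKP4-KO 24 h LCM 1, to 5 lower without PKP4-KO 24 h LCM 2 and to 3 higher without WT 24 h LCM 1. At 72 h in LCM 6 were lower and 10 higher (background 23.8% and 21.3%), and at 72 h in HCM 14 were lower and 2 higher (background 29.9% and 21.9%). The 72 h LCM count was 6 higher without PKP4-KO 72 h LCM 3, and 4 higher and 10 lower without the TMM factors.

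The 24 h HCM difference lay in sterol synthesis. Of 7 mevalonate genes 4 were lower and of 11 squalene and sterol genes 9, and none of these 18 was higher. Nsdhl, a sterol dehydrogenase, stood at 98.5, 119.9 and 97.3 CPM in WT and 28.3, 31.6 and 36.03 in PKP4-KO (log2 fold change -1.72, SE 0.17, adjusted p = 2.81e-09). Mvd, at the values given above, differed by -1.60 on the log2 scale (adjusted p = 2.02e-09), and Hsd17b7, a ketosteroid reductase, stood at 83.5, 37.6 and 54.7 CPM in WT and 19.2, 26.1 and 11.1 in PKP4-KO (log2 fold change -1.63, SE 0.36, adjusted p = 0.000507). In these 3 genes all PKP4-KO libraries lay below all WT libraries. Insig1 (log2 fold change -0.93, SE 0.23, adjusted p = 0.00157) and Stard4, at 21.7, 24.0 and 13.0 CPM in PKP4-KO (log2 fold change -0.58, SE 0.23, adjusted p = 0.0429), were lower too, and the Stard4 libraries overlapped those of WT. Srebf2 stood at 120.4, 128 and 109 CPM in PKP4-KO 24 h HCM and did not pass (log2 fold change -0.13, SE 0.12, adjusted p = 0.39). Hmgcs1, at 84.6, 120.3 and 59.9 CPM in PKP4-KO (log2 fold change -0.61, SE 0.27, adjusted p = 0.0751), and Sqle (log2 fold change -0.25, SE 0.21, adjusted p = 0.373) did not pass.

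The same enzymes at 24 h in LCM were closer to WT. Nsdhl stood at 37.9, 49.8 and 40.6 CPM in WT and 28.0, 32.0 and 35.1 in PKP4-KO (log2 fold change -0.43, SE 0.17, adjusted p = 0.043). Mvd did not pass there (log2 fold change 0.02, SE 0.16, adjusted p = 0.926), nor did Hmgcs1, with 46.1, 58.2 and 66.8 CPM in PKP4-KO (log2 fold change -0.52, SE 0.27, adjusted p = 0.134), or Stard4, with 12.8, 13.4 and 15.7 CPM (log2 fold change -0.29, SE 0.23, adjusted p = 0.33). In 72 h LCM PKP4-KO held 74.96, 47.7 and 74.7 CPM of Hmgcs1 (log2 fold change -0.65, SE 0.27, adjusted p = 0.0522) and 12.2, 9.72 and 14.8 CPM of Stard4 (log2 fold change -0.23, SE 0.24, adjusted p = 0.437), and neither passed. At 72 h in LCM 5 of 11 sterol genes were higher in PKP4-KO, among them Fdft1, which stood at 64.2, 55.7 and 63.6 CPM in WT and 133, 135 and 136 in PKP4-KO (log2 fold change 1.14, SE 0.15, adjusted p = 4.57e-07). At 72 h in HCM Fdft1 was higher again (log2 fold change 0.48, SE 0.15, adjusted p = 0.0079), but at -0.25 without the TMM factors, whereas 3 of 7 mevalonate and 5 of 11 sterol genes were lower. Hmgcs1, at 93.5, 80.9 and 85.1 CPM in PKP4-KO 72 h HCM, was the lowest against WT among the mevalonate genes (log2 fold change -1.16, SE 0.28, adjusted p = 0.000962), and Stard4, at 24.8, 21.5 and 26.4 CPM, was lower as well (log2 fold change -0.88, SE 0.24, adjusted p = 0.00281).

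The 72 h HCM count moved with a correction for gene length and with scaling, and the PKP4-KO libraries of that condition have the lowest length index. With an offset for gene length in every library, 6 members were higher and 11 lower in PKP4-KO, and the median of the members went from -0.44 to 0.00. Fasn then stood at 0.06 (adjusted p = 0.79), Acaca at 0.22 (adjusted p = 0.347) and Srebf2 at 0.47 (adjusted p = 0.00235), against -0.60, -0.59 and -0.05 without the offset. Without the TMM factors 1 member was higher and 25 were lower. At 24 h in HCM the same offset gave 2 higher and 19 lower, and leaving out the 7 libraries of low length index gave 2 and 21, so this count hardly moved.

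**Figure D4:**
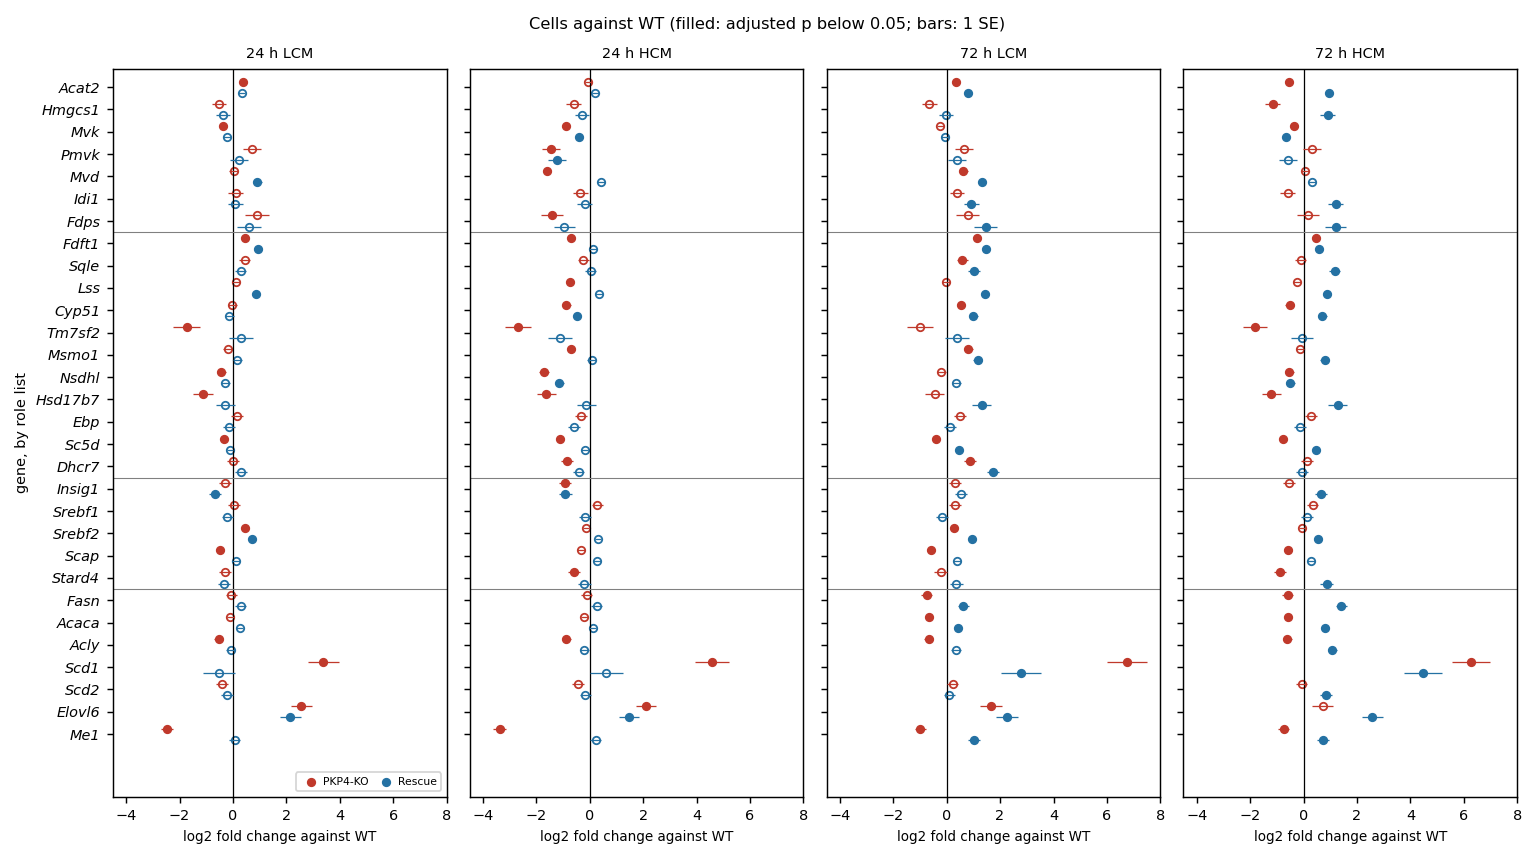
Log2 differences from WT (x axis; error bars are standard errors) of PKP4-KO and Rescue cells for the 30 members (y axis), one panel per culture condition, with filled points for calls. PKP4-KO points lie left of 0 for 17 called members at 24 h HCM, Scd1 lies far to the right in all 4 PKP4-KO panels, and Rescue points lie right of 0 for 21 called members at 72 h HCM.

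The fatty acid genes split by gene. Scd1, a stearoyl-CoA desaturase that places a double bond in saturated fatty acids, was higher in PKP4-KO in all 4 conditions. At 24 h in LCM it stood at 8.08, 2.099 and 0.364 CPM in WT, where the libraries differed widely, and 28.3, 36.5 and 45.5 in PKP4-KO (log2 fold change 3.38, SE 0.59, adjusted p = 3.45e-05). At 24 h in HCM the values were 2.88, 2.37 and 0.204 CPM in WT and 35.5, 47.2 and 45.2 in PKP4-KO (log2 fold change 4.56, SE 0.63, adjusted p = 8.24e-07). At 72 h in LCM they were 0.201, 0.277 and 0.50004 CPM in WT and 26.8, 41.8 and 39.2 in PKP4-KO (log2 fold change 6.75, SE 0.74, adjusted p = 2.01e-08), and at 72 h in HCM 0.649, 0.704 and 0.512 and 48.4, 52.7 and 47.9 CPM (log2 fold change 6.27, SE 0.72, adjusted p = 4.38e-08). Every PKP4-KO library was above every WT library. The lowest WT library held 4 counts, so the fold at 72 h is imprecise. The near copies Scd3 and Scd4 held at most 15 and 4 counts in any library, and whether reads of Scd1 are shared with them was not tested. Among the 51 tested genes within 2 Mb on chromosome 19, the median log2 difference in the 4 conditions was -0.06, -0.11, -0.14 and -0.29. Scd2, the most highly expressed member, was called in none of the 4, with 743, 445 and 664 CPM in WT and 471, 549.5 and 339 in PKP4-KO at 24 h in HCM (log2 fold change -0.45, SE 0.21, adjusted p = 0.0937).

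Me1 moved the other way and was lower in PKP4-KO in all 4 conditions. At 24 h it stood at 39.5, 38.5 and 38.8 CPM in WT LCM and 5.21, 8.88 and 6.93 in PKP4-KO LCM (log2 fold change -2.47, SE 0.23, adjusted p = 1.3e-09), and in HCM at 90.7, 57.7 and 65.7 and 7.45, 7.90 and 5.24 CPM (log2 fold change -3.37, SE 0.24, adjusted p = 2.44e-12). At 72 h it stood at 54.9, 59.9 and 62.0 and 32.2, 22.9 and 34.2 CPM in LCM (log2 fold change -0.98, SE 0.22, adjusted p = 0.00059) and at 106, 109 and 85.1 and 57.1, 62.2 and 59.6 CPM in HCM (log2 fold change -0.75, SE 0.22, adjusted p = 0.00552). No PKP4-KO library reached the WT range of its condition. Acly was lower in all 4 as well, with log2 differences of -0.53 (SE 0.17), -0.88 (SE 0.17), -0.67 (SE 0.17) and -0.61 (SE 0.17) in the order 24 h LCM, 24 h HCM, 72 h LCM and 72 h HCM. So was Sc5d, which makes a double bond of the sterol ring, at -0.34 (SE 0.12), -1.12 (SE 0.12), -0.39 (SE 0.12) and -0.76 (SE 0.12) in the same order. Scd1 was 1 of 30 members called higher in all 4, as 8.48% of tested genes were, and Acly, Me1 and Sc5d were 3 of 30 called lower in all 4, beside 10.2%.

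Elovl6 and Tm7sf2 had wide differences at low counts. Elovl6 stood at 2.27, 1.05 and 0.989 CPM in WT 24 h LCM and 10.3, 6.57 and 8.85 in PKP4-KO (log2 fold change 2.56, SE 0.40, adjusted p = 7.45e-06), and it was also higher at 24 h in HCM (log2 fold change 2.104, SE 0.38, adjusted p = 4.74e-05) and 72 h in LCM (log2 fold change 1.65, SE 0.42, adjusted p = 0.00209). At 72 h in HCM it did not pass (log2 fold change 0.72, SE 0.39, adjusted p = 0.12). Tm7sf2 stood at 2.32, 5.10 and 3.01 CPM in WT 24 h HCM and 0.466, 0.376 and 0.812 in PKP4-KO (log2 fold change -2.68, SE 0.49, adjusted p = 5.6e-05), and it did not pass at 72 h in LCM (log2 fold change -1.002, SE 0.48, adjusted p = 0.0862). Tm7sf2 exons overlap those of Vps51 on the same strand, so its reads are uncertain.

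Fasn was called against WT at 72 h and not at 24 h. At 24 h it stood at 145, 155 and 146 CPM in WT LCM and 114, 151 and 162 in PKP4-KO LCM (log2 fold change -0.06, SE 0.20, adjusted p = 0.837), and at 139.8, 98.7 and 144 and 131, 126 and 96.5 CPM in HCM (log2 fold change -0.12, SE 0.20, adjusted p = 0.699). At 72 h it was 69.9, 95.8 and 109 CPM in PKP4-KO LCM (log2 fold change -0.75, SE 0.21, adjusted p = 0.00389) and 117, 71.3 and 104 in PKP4-KO HCM (log2 fold change -0.60, SE 0.21, adjusted p = 0.0169), all below the WT libraries given above. With the gene-length offset the 72 h LCM value was -0.23 (adjusted p = 0.251), and the call was lost in both media. Srebf1 was called in none of the 4 conditions, at 38.1, 59.4 and 65.9 CPM in 24 h LCM, 70.3, 74.9 and 50.8 in 24 h HCM, 51.4, 51.0 and 68.0 in 72 h LCM and 44.8, 35.3 and 38.0 in 72 h HCM of PKP4-KO. Srebf2 stood at 115, 142 and 148 CPM in 24 h LCM (log2 fold change 0.45, SE 0.12, adjusted p = 0.00265), 96.8, 129 and 120.3 in 72 h LCM (log2 fold change 0.29, SE 0.12, adjusted p = 0.0467) and 138, 118 and 123 in 72 h HCM of PKP4-KO, and the 72 h LCM call was lost under 8 of 14 other settings. Scap was lower at 24 h in LCM (log2 fold change -0.48, SE 0.15, adjusted p = 0.0127), 72 h in LCM (log2 fold change -0.59, SE 0.15, adjusted p = 0.00229) and 72 h in HCM, and the offset ended the call in all 3 (adjusted p = 0.104 at 24 h in LCM).

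Rescue cells were compared with WT and with PKP4-KO to ask what EGFP-PKP4 restored. Against WT, 5 members were higher and 1 lower in 24 h LCM (background 13.5% and 11.4%), and 1 higher and 5 lower in 24 h HCM (11.8% and 11.4%). The 24 h HCM counts were 2 higher and 11 lower without the libraries of low length index, and 3 lower when any of the 3 Rescue libraries or WT 24 h HCM 2 or 3 was left out. At 72 h 18 were higher and 0 lower in LCM (17.9% and 14.6%), and 21 higher and 2 lower in HCM (19.5% and 16.7%). The 72 h Rescue cells were thus above WT for most of the module. Against PKP4-KO, 8 members were higher and 1 lower in 24 h LCM (background 18.2% and 15.5%), and 14 and 1 in 24 h HCM (21.7% and 19%). At 72 h the counts were 16 and 1 in LCM (23.3% and 18.3%) and 21 and 2 in HCM (37.2% and 29.5%). With the gene-length offset the last comparison gave 16 higher and 3 lower, and without the TMM factors 28 and 0.

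Me1 was the clearest case of a value near WT at 24 h. Rescue libraries held 49.1, 45.4 and 27.0 CPM in 24 h LCM and 90.8, 94.7 and 63.9 in 24 h HCM, which overlapped WT and were 5.76-fold and 12.03-fold above PKP4-KO (log2 fold change 3.59, SE 0.24, adjusted p = 9.96e-13 in HCM). Against WT the log2 differences were 0.06 (SE 0.22) and 0.22 (SE 0.22) and did not pass. At 72 h Me1 exceeded WT, at 150.1, 91.9 and 118 CPM in LCM (log2 fold change 1.03, SE 0.22, adjusted p = 0.000473) and 167, 164 and 167 in HCM (log2 fold change 0.73, SE 0.22, adjusted p = 0.00971). Besides Me1, Lss, Tm7sf2, Scap and Acly were higher than in PKP4-KO in all 4 conditions, 5 of 30 members beside 9.08% of tested genes.

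Scd1 was lower in Rescue than in PKP4-KO in all 4 conditions, which held for 5.99% of tested genes. The Rescue values were 1.73, 2.81 and 2.81 CPM in 24 h LCM (log2 fold change -3.91, SE 0.61, adjusted p = 7.76e-06), 1.96, 1.53 and 4.72 in 24 h HCM (log2 fold change -3.95, SE 0.60, adjusted p = 4.35e-06), 2.38, 2.06 and 2.41 in 72 h LCM (log2 fold change -3.96, SE 0.61, adjusted p = 5.54e-06) and 16.9, 13.2 and 12.6 in 72 h HCM (log2 fold change -1.80, SE 0.54, adjusted p = 0.00482). At 24 h they lay within or near the WT range, and the differences from WT were -0.53 (SE 0.59) in LCM and 0.62 (SE 0.62) in HCM, neither past the threshold. At 72 h they remained above WT (log2 fold change 2.79, SE 0.75, adjusted p = 0.00443 in LCM and log2 fold change 4.47, SE 0.70, adjusted p = 1.37e-05 in HCM). Elovl6, in contrast, was higher than WT in Rescue in all 4 conditions (5.13% of tested genes), with log2 differences of 2.14 (SE 0.40), 1.47 (SE 0.38), 2.27 (SE 0.41) and 2.58 (SE 0.38) in the order 24 h LCM, 24 h HCM, 72 h LCM and 72 h HCM.

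Among sterol genes of Rescue cells, Dhcr7, which completes cholesterol synthesis, stood at 36.6, 52.7 and 35.5 CPM in 72 h LCM against 10.2, 13.0 and 14.2 in WT (log2 fold change 1.73, SE 0.23, adjusted p = 5.88e-07). Fdft1 stood at 143, 206 and 158 CPM in 72 h LCM (log2 fold change 1.47, SE 0.15, adjusted p = 8.95e-09), above the WT range, and Fdps at 2.42, 2.06 and 0.944 against 0.501, 0.911 and 0.545 CPM (log2 fold change 1.45, SE 0.43, adjusted p = 0.00898). At 24 h in HCM Mvd, lowered in PKP4-KO, was 54.0, 55.1 and 38.6 CPM in Rescue (log2 fold change 2.01, SE 0.16, adjusted p = 3.02e-11 against PKP4-KO), and it did not pass against WT (log2 fold change 0.41, SE 0.15, adjusted p = 0.0549). Nsdhl at 24 h in HCM, at 49.9, 46.9 and 46.1 CPM in Rescue, was above PKP4-KO (log2 fold change 0.58, SE 0.17, adjusted p = 0.00727) and below WT (log2 fold change -1.14, SE 0.17, adjusted p = 9.13e-06). Hsd17b7 in 72 h HCM was 29.1, 25.9 and 25.4 CPM in PKP4-KO, 73.3, 77.4 and 35.1 in WT and 147, 159 and 144 in Rescue (log2 fold change 2.49, SE 0.37, adjusted p = 2.2e-06 against PKP4-KO). Rescue lay above both other genotypes there, with no overlap.

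The sterol-regulated genes of Rescue cells reached their peak at 72 h in HCM. Hmgcs1 stood at 72.9, 65.8 and 50.6 CPM in 24 h LCM, 102, 122 and 103 in 24 h HCM, 133, 61.8 and 109 in 72 h LCM and 331, 341 and 410.3 in 72 h HCM, where it exceeded WT (log2 fold change 0.90, SE 0.27, adjusted p = 0.0115) and PKP4-KO (log2 fold change 2.06, SE 0.28, adjusted p = 5.55e-07). Sqle stood at 50.3, 58.3 and 39.06 CPM in 24 h LCM, 86.5, 90.9 and 76.8 in 24 h HCM, 101, 56.9 and 89.7 in 72 h LCM and 232, 237 and 219.9 in 72 h HCM (log2 fold change 1.16, SE 0.21, adjusted p = 0.000102 against WT). Stard4 stood at 15.0, 15.7 and 9.88, 25.97, 25.8 and 25.1, 24.7, 13.7 and 17.1 and 80.0, 75.6 and 86.8 CPM in the same order (log2 fold change 0.86, SE 0.23, adjusted p = 0.00464 against WT). For each of the 3 genes the lowest 72 h LCM value came from the library of low length index. In 24 h cells Insig1 was lower than in WT, at 11.8, 13.4 and 8.44 CPM in LCM (log2 fold change -0.66, SE 0.23, adjusted p = 0.0372) and 18.01, 24.2 and 13.8 in HCM (log2 fold change -0.91, SE 0.23, adjusted p = 0.00414). The LCM call, the single lower call there, was lost without Rescue 24 h LCM 1 or 3 or WT 24 h LCM 1 or 3 (adjusted p from 0.0698 to 0.19), with every gene of at least 1 read and without the TMM factors, and the HCM call without the TMM factors. Fasn stood at 199, 214 and 132 CPM in 24 h LCM and 154, 172 and 129 in 24 h HCM, and its 72 h values given above exceeded WT (log2 fold change 0.62, SE 0.20, adjusted p = 0.0207 in LCM and log2 fold change 1.41, SE 0.21, adjusted p = 6.14e-06 in HCM). Srebf2 stood at 161, 171 and 151, 163, 174 and 147, 204, 169 and 175 and 194, 192 and 176 CPM and was higher than WT in all conditions except 24 h HCM, and Srebf1 stood at 46.7, 50.5 and 40.2, 44.2, 54.4 and 42.8, 42.7, 33.9 and 46.2 and 32.3, 33.7 and 36.6 CPM and was called in none.

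Within groups, the level of a member followed the length index of its library. Over the 36 libraries, after the group means were taken out, r between a member and the length index was over 0.5 for 17 members, under -0.5 for 8 and between for 5. It was 0.96 for Hsd17b7, 0.92 for Hmgcs1, 0.92 for Sqle and 0.91 for Acly, and -0.94 for Pmvk, -0.90 for Ebp, a sterol isomerase, and -0.80 for Fdft1. The points share their libraries, so the members are not independent of each other. The same correlations were not counted over all tested genes. The index is itself built from levels of tested genes, so these counts are not shown to be particular to the members. The sign did not follow gene length in every case, since Fdft1 (4116 bases) and Cyp51 (4415 bases, r = 0.88) are of like length. What made the libraries differ was not tested.

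**Figure D5:**
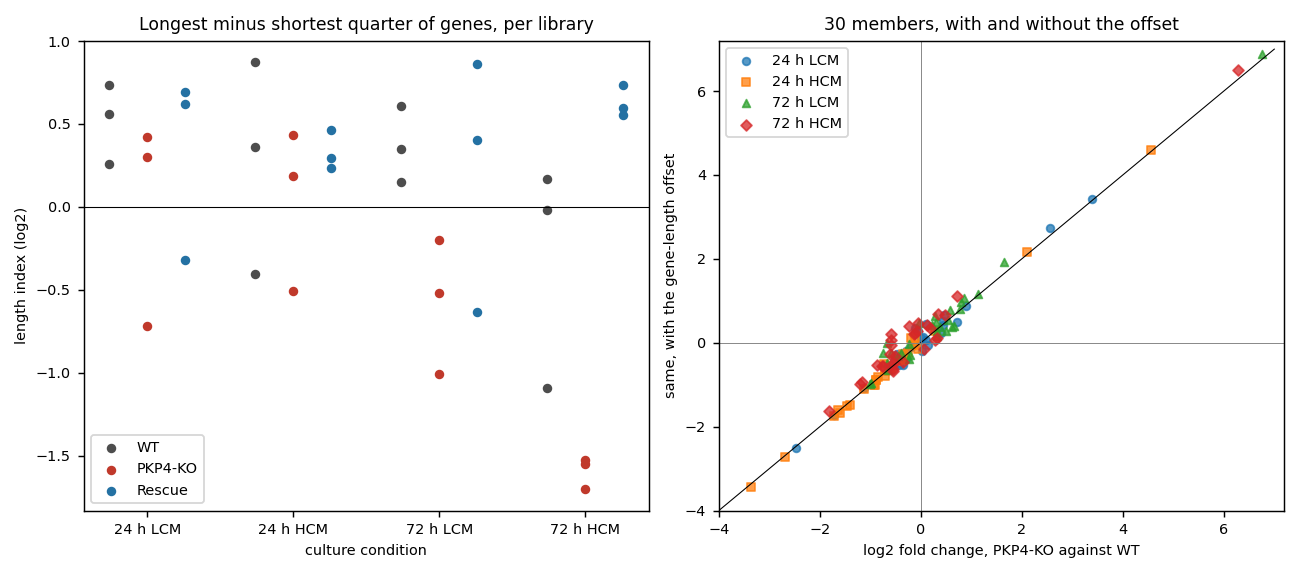
Length index of each of the 36 libraries (y axis, log2 units) by group (x axis), with a point per library. The 3 PKP4-KO 72 h HCM libraries lie between -1.70 and -1.52, below all others.

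The members also varied together across the 12 group means of log2 CPM, as a description. Among the 18 mevalonate and sterol enzymes the 153 pairs had a median r of 0.805, from 0.367 to 0.977, whereas pairs drawn from every 10th tested gene had a median of 0.0022. The sterol carrier gene Stard4 followed Hmgcs1 (r = 0.950), and Insig1 followed Cyp51 (r = 0.970). Srebf2 was related less closely to Hmgcs1 (r = 0.380), and Srebf1 inversely (r = -0.674). The 7 fatty acid genes were less alike among themselves (median r 0.459 over 21 pairs), and Scd1 stood apart from Hmgcs1 (r = -0.255). The groups share cells, medium and the length index, and 12 groups of a crossed design are not independent samples.

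Of 24 further genes of lipid metabolism, 23 were tested, all but Nr1h3. In WT 8 of 23 were higher and 2 lower in HCM at 72 h (background 10.6% and 10.8%), and at 24 h 5 and 3 (7.69% and 6.48%). Against WT, PKP4-KO had 6 higher and 7 lower in 24 h LCM (background 19.7% and 20.6%), 5 and 5 in 24 h HCM (20.7% and 22.2%), 4 and 10 in 72 h LCM (21.3% and 23.8%), and 7 and 9 in 72 h HCM (21.9% and 29.9%). The 24 h HCM counts, 5 of 23 each way, were near the background. Called in all 4 were Abcg1, a sterol exporter, with log2 differences of -2.54, -3.63, -1.54 and -1.79 in that order, and Aacs, acetoacetyl-CoA synthetase, with -0.58, -0.99, -0.62 and -0.95. The citrate carrier gene Slc25a1 was higher, at 1.35, 0.51, 1.49 and 1.19, and so was Lpin1, a phosphatidate phosphatase gene, at 1.65, 2.86, 2.61 and 1.99. Of all tested genes 8.48% were called higher and 10.2% lower in all 4. In Rescue against WT, Slc25a1 was called higher in all 4, at 1.51, 0.85, 1.45 and 0.83, as 5.13% of tested genes were. Rescue differed from PKP4-KO in all 4 in Abcg1 (2.28, 2.96, 2.04 and 1.62), in Mylip, which marks lipoprotein receptors for degradation (-2.60, -3.34, -2.61 and -1.91), and in Soat1, which esterifies cholesterol (1.14, 0.67, 2.11 and 4.26). It also differed in Tmem97 (-0.92, -0.68, -0.50 and -0.59) and in Mid1ip1 (0.43, 0.92, 0.94 and 0.52). Of all tested genes 9.08% were higher and 5.99% lower in Rescue than in PKP4-KO in all 4.

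Markers of differentiation and of other cells moved with some of the same groups. Their CPM are scaled to library totals without TMM factors. These factors were 0.481 to 0.546 in PKP4-KO 72 h HCM and 0.705 to 0.980 in WT 72 h HCM. The 6 markers of differentiated keratinocytes summed to 3926 to 4853 CPM in PKP4-KO 72 h HCM, 677 to 1110 CPM in WT 72 h HCM, 651 to 891 CPM in Rescue 72 h HCM and 69.2 to 97.0 CPM in PKP4-KO 24 h LCM. Most of the sum in PKP4-KO 72 h HCM was Krt1 and Krt10 (means of 1942 and 2302 CPM, against 34.7 and 479.7 in WT 72 h HCM). Of the later markers, Ivl and Lor stood the other way, at means of 10.5 and 21.0 CPM in PKP4-KO 72 h HCM and 129 and 209.8 in WT 72 h HCM. Flg and Tgm1 were higher in PKP4-KO 72 h HCM, at means of 3.63 and 245 CPM against 0.506 and 79.7 in WT 72 h HCM. The 6 sebocyte markers summed to at most 5.68 CPM in any library, with the highest sums in Rescue 72 h HCM (4.90 to 5.68 CPM) and Awat1 and Mc5r at 0 there. The 4 adipocyte markers summed to 73.5 to 83.8 CPM in Rescue 72 h HCM, 139.9 to 261 CPM in Rescue 72 h LCM and 12.6 to 15.5 CPM in WT 72 h HCM, and in each of these groups Adipoq, Plin1 and Lep were at 0, so the sum was that of Fabp4. The 4 immune markers summed to 73.7 to 156 CPM in Rescue and 7.81 to 42.8 CPM in WT and PKP4-KO, and nearly all of each sum was Cd68, since Cd207 was at 0 throughout, Ptprc reached at most 0.290 CPM and Cd3e at most 0.0666 CPM in any library. The part of these genes in the lipid gene values was not tested.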

How the data were processed

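Poly(A) RNA libraries of 36 keratinocyte samples were analysed from gene counts. The authors aligned reads to mm39, joined to the GFP-PKP4 sequence, with HISAT2 2.1.0, discarded secondary alignments (SAMtools 1.10), counted reads in genes (featureCounts 2.0.0) and deposited unnormalised counts. The libraries are strand-specific per the labels, but the strand setting of the counting is not given in the sources used here. Exons of Acat2, Hmgcs1, Idi1, Fdft1, Sqle, Lss, Cyp51, Nsdhl, Srebf1, Srebf2, Scap, Acaca, Acly, Elovl6 and Me1 overlap a gene on the opposite strand, and those of Tm7sf2 overlap Vps51 on the same strand. Acat2, Scd1 and Idi1 have near copies that could share reads. Copies of Fdps and of the other members were not looked for.

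The members and gene lists were chosen with earlier results of these data known. Genes were filtered with filterByExpr over the 12 groups, scaled by TMM factors and tested with edgeR 4.0.16 (R 4.3.3) by its quasi-likelihood F-test in 1 model of 12 groups with 24 residual degrees of freedom. P-values were adjusted by Benjamini-Hochberg over 15114 genes within each comparison, and a gene was called at an adjusted p of at most 0.05. Except for the cell type markers, CPM are counts scaled to library size with TMM factors, without a pseudocount. CPM of the cell type markers are scaled to library totals without TMM factors. RPKM are TMM-scaled CPM per kilobase of the gene length in the count table. At the median depth of 17353520 counts, 3 counts are 0.173 CPM.

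Of the members, Hmgcs1, Sqle, Insig1, Srebf1, Srebf2, Fasn, Scd1 and Stard4 are given in every library, with up to 4 further members per family of comparisons that were called with the largest difference, and the 3 largest differences of effects. Other lipid genes are named where called in all 4 conditions. Alternatives were DESeq2 1.42.0, no TMM factors, other filters, a fit of only the groups compared, a replicate block, and each library left out, and after the data were seen a gene-length offset and a fit without libraries of low length index. Same-numbered libraries were checked for shared deviations, which ranged from -0.65 to 0.72 in r and passed 0.1 in all 3 pairs in 2 of 24 comparisons. No 2 libraries of a group were alike within sampling noise. The test was checked on simulated counts.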

Additional observations from a re-analysis of the deposited data

Results flagged for a closer look

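Members are listed here because the effect of calcium or of time differed between PKP4-KO and WT by a test of the difference itself (edgeR, adjusted p at most 0.05 over all 15114 genes). All values are log2 effects in PKP4-KO minus those in WT. For calcium at 24 h, where 2.79% of all tested genes had a smaller effect in PKP4-KO, the values were -2.18 for Pmvk, -1.62 for Mvd, -2.31 for Fdps, -1.16 for Fdft1, -0.83 for Lss, -0.86 for Cyp51, -1.29 for Nsdhl, -0.78 for Sc5d and -0.59 for Srebf2. The standard errors ran from 0.17 (Srebf2) to 0.61 (Fdps). For calcium at 72 h the values were -0.88 for Acat2, -1.05 for Cyp51 and -0.94 for Msmo1, where 3.88% of all tested genes had a smaller effect in PKP4-KO. These are 3 of 30 members, and the count was 10 without the libraries of low length index and 7 without the TMM factors. Cyp51 was thus called at both times.

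For time in LCM the values were 0.70 for Fdft1, 0.99 for Msmo1, 3.37 for Scd1 and 1.48 for Me1. That of Scd1 was a fall in WT, where the 24 h LCM libraries differed widely, and not a rise in PKP4-KO. For time in HCM they were -0.50 for Acat2, 0.55 for Mvk, 1.78 for Pmvk, 1.67 for Mvd, 1.58 for Fdps, 1.198 for Fdft1, 1.17 for Nsdhl, 0.98 for Dhcr7 and 2.62 for Me1. The time effects in HCM involve the PKP4-KO 72 h HCM libraries, whose length index was the lowest, and that of Mvk stood at -0.26 without the TMM factors. Pmvk, Mvd, Fdps, Fdft1 and Nsdhl appear for calcium at 24 h with a negative sign and for time in HCM with a positive one, and both contrasts use the PKP4-KO and WT 24 h HCM libraries.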

How the results depend on the processing

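The calls kept their direction for most members under most settings. The higher counts for calcium in WT at 72 h and in Rescue at 72 h, and the lower count for PKP4-KO against WT at 24 h in HCM, stayed within 1.5 times under all settings tried, the last between 15 and 21. The limits are depth, since Fdps, Tm7sf2 and Scd1 had under 10 counts in some libraries and drop out when at least 10 counts are required in every library, and the length index, which a group of 3 libraries can share. The cause of the changes below was not tested, except that fits with fewer libraries or fewer genes have less to test on. Without the TMM factors the median of all tested genes stood at -0.83 for PKP4-KO against WT at 72 h in HCM and at -0.27 for calcium in WT at 24 h, and the counts that moved by over 1.5 times were 2 higher for PKP4-KO against WT 24 h LCM, 4 higher and 10 lower for PKP4-KO against WT 72 h LCM, 1 higher and 25 lower for PKP4-KO against WT 72 h HCM, 2 lower for Rescue against WT 24 h LCM, 2 higher and 3 lower for Rescue against WT 24 h HCM, 0 lower for Rescue against WT 72 h HCM, 0 lower for Rescue against PKP4-KO 72 h HCM, 9 higher for calcium in WT 24 h, 0 higher for calcium in PKP4-KO 24 h, 6 higher and 4 lower for calcium in PKP4-KO 72 h, 1 higher for time in WT LCM, 5 higher for time in WT HCM, 3 higher and 6 lower for time in PKP4-KO LCM, 7 higher and 11 lower for time in PKP4-KO HCM, 5 higher for time in Rescue LCM, 4 lower for the difference of calcium effects (24 h), 7 lower for the difference of calcium effects (72 h), 2 higher for the difference of time effects (LCM) and 4 higher and 8 lower for the difference of time effects (HCM). Values that turned without the TMM factors were -0.25 (Fdft1) for PKP4-KO against WT 72 h HCM, -0.26 (Mvk) for the difference of time effects (HCM), -0.076 (Sqle) for calcium in PKP4-KO 72 h, -0.11 (Srebf2) for PKP4-KO against WT 72 h LCM and -0.75 (Srebf2) for the difference of time effects (HCM). With DESeq2 in place of edgeR the counts that moved were 2 higher for Rescue against WT 24 h HCM, 2 lower for Rescue against PKP4-KO 72 h LCM, 4 lower for Rescue against PKP4-KO 72 h HCM, 1 lower for calcium in WT 72 h, 1 lower for time in PKP4-KO HCM and 0 lower for the difference of time effects (HCM). With every gene of at least 1 read they were 3 higher and 4 lower for PKP4-KO against WT 24 h LCM, 0 lower for Rescue against WT 24 h LCM, 3 lower for Rescue against WT 24 h HCM, 1 higher for calcium in PKP4-KO 24 h, 1 higher for time in WT LCM, 4 lower for the difference of calcium effects (24 h) and 0 lower for the difference of time effects (HCM), and with at least 10 counts in every library 1 higher for PKP4-KO against WT 24 h HCM, 1 higher for PKP4-KO against WT 72 h HCM, 3 higher for Rescue against WT 24 h HCM, 0 lower for Rescue against PKP4-KO 24 h LCM, 0 lower for Rescue against PKP4-KO 24 h HCM, 0 lower for Rescue against PKP4-KO 72 h LCM, 1 lower for time in WT LCM and 1 lower for time in PKP4-KO HCM. With a fit of only the groups compared they were 1 higher for PKP4-KO against WT 72 h HCM, 3 lower for Rescue against WT 24 h HCM, 5 higher for Rescue against PKP4-KO 24 h LCM, 10 higher for Rescue against PKP4-KO 72 h LCM, 6 lower for Rescue against PKP4-KO 72 h HCM, 0 higher for calcium in PKP4-KO 24 h, 1 lower for calcium in PKP4-KO 72 h, 0 lower for time in WT HCM, 1 lower for time in PKP4-KO LCM, 1 lower for time in PKP4-KO HCM, 5 higher for time in Rescue LCM and 1 lower for time in Rescue HCM. With the replicate number as a block in the fit of 12 groups they were 1 higher for time in WT LCM, 1 lower for time in PKP4-KO HCM and 0 lower for the difference of time effects (HCM), and no other count moved by that much. Same-numbered libraries correlated over 0.1 in all pairs in 2 of 24 comparisons, and there a block in a fit of only the groups compared, added after the data were seen, gave 21 higher and 0 lower for calcium in WT at 24 h and 15 and 2 for Rescue against PKP4-KO at 72 h in LCM. The gene-length offset and the fit without libraries of low length index were also chosen after seeing the data. With the offset the counts that moved were 6 higher for PKP4-KO against WT 72 h HCM, 2 lower for Rescue against WT 24 h LCM, 2 higher for Rescue against WT 24 h HCM, 2 lower for Rescue against PKP4-KO 24 h HCM, 2 lower for Rescue against PKP4-KO 72 h LCM, 1 lower for calcium in Rescue 72 h, 1 lower for time in WT LCM, 1 lower for time in PKP4-KO LCM, 0 lower for time in PKP4-KO HCM, 1 lower for time in Rescue HCM and 15 higher for the difference of time effects (HCM), and the values that turned were 0.22 (Acaca) for PKP4-KO against WT 72 h HCM, 0.059 (Fasn) for PKP4-KO against WT 72 h HCM and 0.47 (Srebf2) for PKP4-KO against WT 72 h HCM. Without the libraries of low length index they were 5 higher for PKP4-KO against WT 72 h HCM, 4 lower for Rescue against WT 24 h LCM, 2 higher and 11 lower for Rescue against WT 24 h HCM, 2 lower for Rescue against PKP4-KO 24 h HCM, 2 lower for Rescue against PKP4-KO 72 h LCM, 4 lower for Rescue against PKP4-KO 72 h HCM, 4 higher for calcium in PKP4-KO 24 h, 1 lower for calcium in PKP4-KO 72 h, 5 higher and 4 lower for time in WT LCM, 5 lower for time in PKP4-KO LCM, 1 lower for time in PKP4-KO HCM, 1 lower for time in Rescue HCM, 10 lower for the difference of calcium effects (72 h), 7 higher and 2 lower for the difference of time effects (LCM) and 2 lower for the difference of time effects (HCM). When 1 library at a time was left out, some counts moved by over 1.5 times, and the libraries behind each are named. The ranges were 3 to 5 higher for PKP4-KO against WT 24 h LCM (without WT 24 h LCM 1), 3 to 7 lower for PKP4-KO against WT 24 h LCM (without PKP4-KO 24 h LCM 1 or 2), 6 to 9 higher for PKP4-KO against WT 72 h LCM (without PKP4-KO 72 h LCM 3) and 1 to 2 higher for PKP4-KO against WT 72 h HCM (without WT 72 h HCM 1 or 2). The ranges were 0 to 1 lower for Rescue against WT 24 h LCM (without Rescue 24 h LCM 1 or 3 or WT 24 h LCM 1 or 3), 1 to 3 higher for Rescue against WT 24 h HCM (without Rescue 24 h HCM 3), 3 to 6 lower for Rescue against WT 24 h HCM (without Rescue 24 h HCM 1 or 2 or 3 or WT 24 h HCM 2 or 3) and 1 to 2 lower for Rescue against WT 72 h HCM (without Rescue 72 h HCM 2 or 3 or WT 72 h HCM 3). The ranges were 1 to 2 lower for Rescue against PKP4-KO 24 h LCM (without Rescue 24 h LCM 3), 1 to 2 lower for Rescue against PKP4-KO 24 h HCM (without PKP4-KO 24 h HCM 3), 1 to 2 lower for Rescue against PKP4-KO 72 h LCM (without Rescue 72 h LCM 2) and 1 to 2 lower for Rescue against PKP4-KO 72 h HCM (without PKP4-KO 72 h HCM 2 or Rescue 72 h HCM 2). The ranges were 0 to 1 lower for calcium in WT 72 h (without WT 72 h HCM 2) and 0 to 2 higher for calcium in PKP4-KO 24 h (without PKP4-KO 24 h HCM 1 or 2 or PKP4-KO 24 h LCM 1 or 2 or 3). The ranges were 1 to 2 higher for time in WT LCM (without WT 24 h LCM 1 or 2 or 3 or WT 72 h LCM 1 or 3), 1 to 2 lower for time in WT LCM (without WT 24 h LCM 1 or WT 72 h LCM 1), 0 to 1 lower for time in WT HCM (without WT 72 h HCM 3), 1 to 5 lower for time in PKP4-KO LCM (without PKP4-KO 24 h LCM 1 or 3) and 1 to 2 lower for time in PKP4-KO HCM (without PKP4-KO 24 h HCM 3 or PKP4-KO 72 h HCM 2 or 3). The ranges were 5 to 9 lower for the difference of calcium effects (24 h) (without PKP4-KO 24 h HCM 3 or WT 24 h HCM 1 or WT 24 h LCM 1). The ranges were 2 to 4 higher for the difference of time effects (LCM) (without WT 72 h LCM 1 or 2), 0 to 1 lower for the difference of time effects (LCM) (without PKP4-KO 72 h LCM 2), 5 to 8 higher for the difference of time effects (HCM) (without WT 72 h HCM 1 or 2) and 0 to 1 lower for the difference of time effects (HCM) (without PKP4-KO 72 h HCM 3 or WT 72 h HCM 1 or 2 or 3).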
